A study of Saccharomyces cerevisiae with 17 samples.

Results

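*PRM7* and *BSC1* are neighbouring genes on chromosome IV of budding yeast, and their RNA was followed here across every strain of a study of engineered nucleosome sliding. They were chosen because earlier results from these same data showed them low in several deletion strains, so their levels against wild type are given as a description, with no test. Of 3 listed names, 2 were measured: *PRM7* (YDL039C) and *BSC1* (YDL037C), among 6644 genes present in both deposited tables. The third, YDL038C, has no entry of its own in the tables, and RefSeq lists that name as a synonym of *PRM7*. All strains were *Saccharomyces cerevisiae* of the W303 background, a common laboratory strain, harvested in growing culture at an OD600 of 0.4 to 0.6. The groups were an *isw2 rpd3* double deletion, *rpd3*, *isw2*, *rrp6* with Chd1-Ume6, *rrp6*, *ume6* with a catalytically dead Chd1-Ume6, *ume6* with Chd1-Ume6, *ume6*, wild type with Chd1-Ume6, and wild type. The double deletion alone was in the strain labelled W303 Prototroph, so for that group strain background and genotype cannot be told apart. Chd1-Ume6 is a designed remodeler that carries the nucleosome-sliding enzyme Chd1 to sites bound by Ume6, and the series asked what moving nucleosomes does to transcription in each background.

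Ume6 is a DNA-binding repressor of early meiotic genes that recruits both the Rpd3 histone deacetylase complex and the Isw2 remodeler, and Rrp6 is a nuclear exosome subunit that degrades many unstable transcripts. *PRM7* was named as a pheromone-regulated membrane protein gene. *BSC1* was named as a gene whose stop codon lies in a context that permits bypass by ribosomes, and its product resembles the cell-surface flocculin Flo11. The reference annotation notes that in W303 the open reading frame runs continuously through *BSC1*, the interval after it and *PRM7*, and that this long frame encodes *IMI1*.

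The reading frame is shown first because it joins both genes. In the RefSeq reference R64, which is the sequence of strain S288C and not of W303, both genes lie on the reverse strand, with *BSC1* upstream. The coding sequence of *BSC1* has 987 bases, the interval 519 bases, and that of *PRM7* 2097 bases. The interval is a whole number of codons, 173, and holds 0 stops in the frame of *BSC1*. Over the 1201 codons that start with the first codon of *BSC1* and end with the stop of *PRM7*, the frame has 2 stops, at codon 329 and at codon 1201. Of 2575 adjacent same-strand gene pairs in R64 that do not overlap, 854 are a whole number of codons apart, and 15 pairs, or 0.583%, are open in frame in this way. The build that the authors used is not given, and their tables hold no coordinates, so the positions below are those of R64 alone. The stop codon that separates the genes in the reference is in capitals in the first sequence (chrIV:384571-384633, reverse strand), and the annotated start codon of *PRM7* is in capitals in the second (chrIV:384049-384111, reverse strand).
BSC1 stop junction: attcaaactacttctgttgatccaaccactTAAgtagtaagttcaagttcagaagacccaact
PRM7 start junction: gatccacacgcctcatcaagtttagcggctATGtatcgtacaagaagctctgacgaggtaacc

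The window of 300 bases around the start of *BSC1*, 250 bases before the coding sequence and its first 50 bases, is shown because both genes moved together (chrIV:385538-385837, reverse strand). Its capitals mark the start codon of *BSC1*.
BSC1 promoter window: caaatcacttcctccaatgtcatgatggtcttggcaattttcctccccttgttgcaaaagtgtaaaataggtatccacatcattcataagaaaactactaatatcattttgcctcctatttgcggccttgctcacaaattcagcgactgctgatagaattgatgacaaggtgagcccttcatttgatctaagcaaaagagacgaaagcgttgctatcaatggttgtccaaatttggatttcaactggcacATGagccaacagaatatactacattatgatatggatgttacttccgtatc
The motifs were searched on both strands in this window and in the like window of *PRM7*, which lies inside the open frame. Most of the bases printed before the start codon of *BSC1* also hold no stop in the frame of *BSC1*. How far either window acts as a promoter was not tested. In R64, 1925 bases separate *BSC1* from the next gene upstream, *PUS9*, and those beyond the window were not searched. GGCGGC, the core of the URS1 element bound by Ume6, was in neither window and is in 5.13% of 6001 windows of the same length. TGAAACA, the pheromone response element, was in neither and is in 7.5% of windows. TGACTC, the core of Gcn4 sites, was in neither and is in 7.98% of windows. The authors' own motif entry, whose motif the header does not name, was also "no" for both genes.

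RNA was measured as FPKM, which counts fragments per length of transcript and per sequenced fragment of the library, in 15 deposited columns that stand for 17 labelled libraries in 10 groups. In 5 groups there were 2 columns and in 5 there was 1. Wild type was 1 column whose digits are those of a mean of several values, and *isw2* was 1 column for 2 labelled isolates. Low FPKM values stepped in whole fragments for 92.5% to 97.3% of the genes checked in a column (within 0.1 of a fragment), which put the depth at 8000000 to 50300000 fragments. The deleted *ISW2*, *RPD3*, *RRP6* and *UME6* were at 0.00613 to 1.68 FPKM in the columns of their deletions, with 2 of 10 values missing. *CHD1* was at 276 to 1610 FPKM in columns with a fusion and 22.4 to 39.1 FPKM in those without. The a-type receptor gene *STE2* was at 104 to 295 FPKM and the alpha-type receptor gene *STE3* at 0.0439 to 7.08 FPKM in all columns.

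*PRM7*, the membrane protein gene, had its lowest level in the double deletion and its highest in wild type. In these bulk cultures, fewer cells with the RNA and less RNA per cell cannot be told apart. It was at 2.57 FPKM in *isw2 rpd3*, 41.6 FPKM in *rpd3* and 71.1 FPKM in *isw2*, against 92.0 FPKM in wild type. The double deletion thus stood apart from both single deletions. *PRM7* was at 21.8 and 15.2 FPKM in the isolates of *rrp6* with Chd1-Ume6 and at 9.84 and 7.67 FPKM in those of *rrp6*. In the *ume6* background it was at 15.6 FPKM with the dead fusion, at 24.2 and 23.6 FPKM with Chd1-Ume6, and at 21.9 and 13.1 FPKM with neither. Wild type with Chd1-Ume6 had 67.9 and 35.6 FPKM. Where a group without isolate numbers had a column in each table, the first value is from the first table and the second from the workbook.

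*BSC1*, the flocculin-like gene upstream, followed the same course. It was at 2.46 FPKM in *isw2 rpd3*, 60.0 FPKM in *rpd3* and 99.2 FPKM in *isw2*, against 130 FPKM in wild type. *BSC1* was at 27.0 and 15.2 FPKM in *rrp6* with Chd1-Ume6 and at 10.1 and 9.33 FPKM in *rrp6*, so these groups did not overlap for either gene, which held in this direction for 25.4% of all genes. In the *ume6* background it was at 20.1 FPKM with the dead fusion, at 25.9 and 26.8 FPKM with Chd1-Ume6, and at 22.0 and 12.0 FPKM with neither. Wild type with Chd1-Ume6 had 88.5 and 50.7 FPKM, above every column of a *ume6* or *rrp6* strain.

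**Figure D1:**
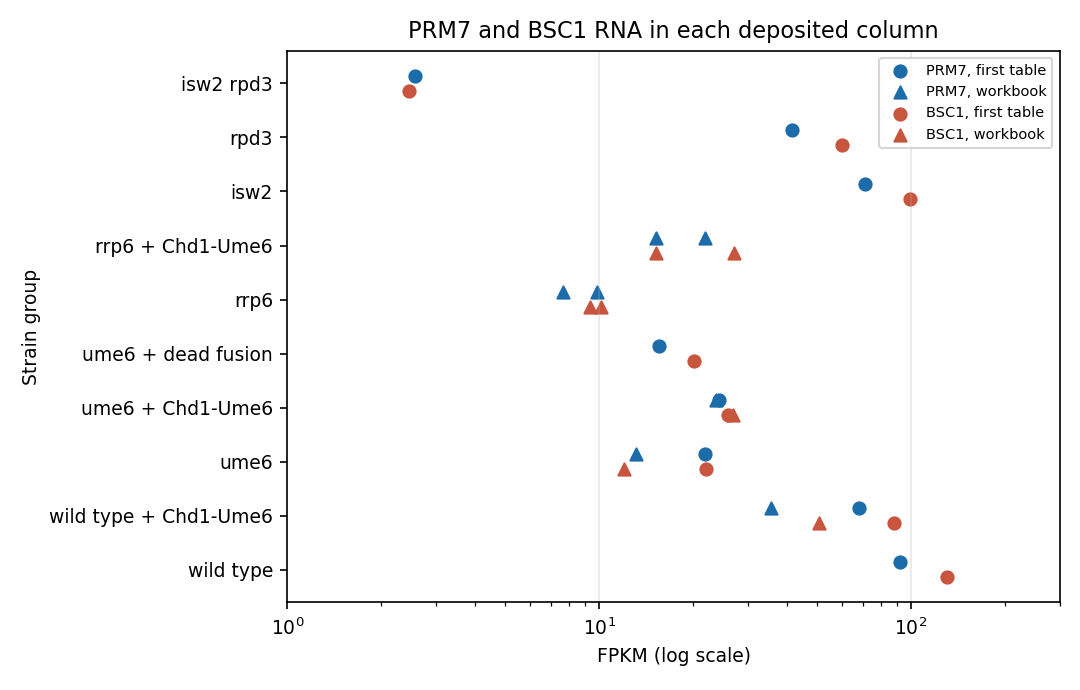
FPKM of *PRM7* (blue) and *BSC1* (red) on a log scale, 1 point per deposited column and 1 line per strain group. Circles are columns of the first table and triangles those of the workbook. The double deletion sits at 2.57 and 2.46 FPKM, and wild type at 92.0 and 130 FPKM.

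In the order of their mean levels, *PRM7* was lowest in *isw2 rpd3*, followed by *rrp6* (8.75 FPKM), *ume6* with the dead fusion (15.6), *ume6* (17.5), *rrp6* with Chd1-Ume6 (18.5), *ume6* with Chd1-Ume6 (23.9), *rpd3* (41.6), wild type with Chd1-Ume6 (51.7), *isw2* (71.1) and wild type (92.0). *BSC1* had the same order, except that *ume6* (17.0 FPKM) lay below *ume6* with the dead fusion (20.1 FPKM). For both genes the dead fusion and *rrp6* with Chd1-Ume6 lay within or overlapped the range of *ume6*, and *rpd3* lay within the range of wild type with Chd1-Ume6 (35.6 to 67.9 FPKM for *PRM7*, 50.7 to 88.5 FPKM for *BSC1*). *isw2* lay just above that range. Columns of 1 group differed by up to 1.91 times for *PRM7* and 1.84 times for *BSC1*, more than the 1.29 times by which *isw2* and wild type differed for *PRM7* on the log2(FPKM + 1) scale.

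The depth was enough to place even the lowest values. The *PRM7* level in *isw2 rpd3* rested on an estimated 78 fragments, which gives a 95% Poisson interval of 2.03 to 3.2 FPKM. That of *BSC1* rested on an estimated 33 fragments, with an interval of 1.69 to 3.45 FPKM. In *rpd3* the estimates were 1428 and 926 fragments, with an interval of 39.5 to 43.9 FPKM for *PRM7*. These intervals cover counting error only. Among all genes of a column, *PRM7* stood at percentile 6.6 and *BSC1* at percentile 6.4 in *isw2 rpd3*, against 79.8 and 84.6 in wild type.

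The ratio of the genes moved little while their levels moved over a wide range. *BSC1* over *PRM7* was 0.96 in *isw2 rpd3*, 1.44 in *rpd3* and 1.4 in *isw2*, against 1.41 in wild type. In the 5 columns with *PRM7* above 35 FPKM the ratio ran over 1.3 to 1.44, and in the 10 other columns over 0.91 to 1.29, so *BSC1* was relatively higher where the locus was high. Over the 15 columns, log2(FPKM + 1) of both genes had r = 0.994, and the SD of their log2 ratio was 0.22 beside a mean SD of 1.34 for the genes themselves. Columns of 1 group share a genotype, so these are fewer than 15 independent points. Of 2689 adjacent same-strand pairs in the fit, 1 pair, this one, had an r that high, and the median pair had r = 0.22. The genes were chosen because both were low in the same columns, so their r and its place among pairs restate that choice. The reference annotation also notes 1 continuous frame through both in W303. The values of *PRM7* and *BSC1* may therefore come from 2 parts of 1 gene and not be separate observations, which was not tested. Where the mean SD of a pair was at least 1, which held for 73 pairs, the median r was 0.56 and the median SD of the log2 ratio 1.63. A share of *BSC1* is not unique in the reference: 14.4% of its 50-base windows occur more than once in R64, against 2.15% for *PRM7*, and how fragments that match several places were counted is not given.

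**Figure D2:**
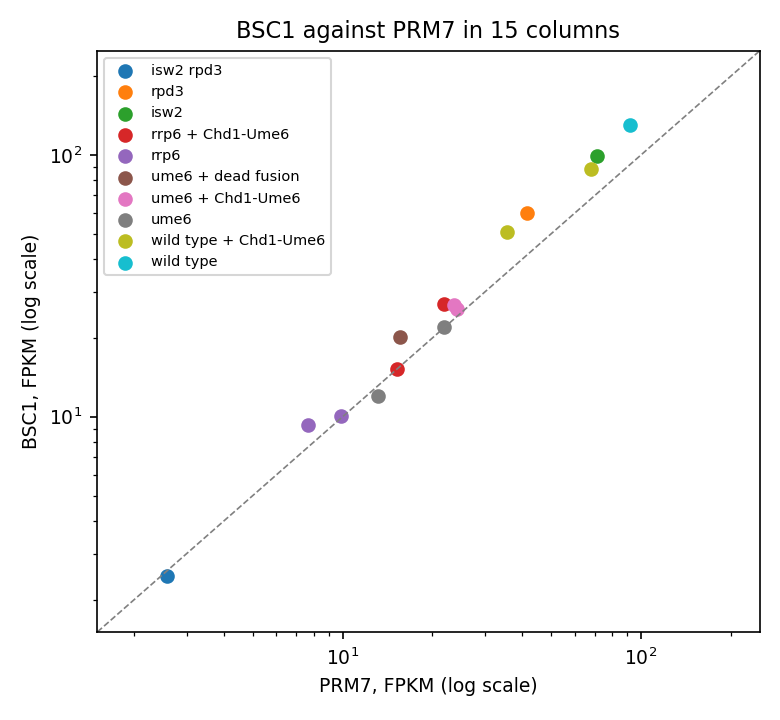
FPKM of *BSC1* against *PRM7* on log scales, 1 point per column, coloured by strain group; the dashed line marks equal levels. The double deletion is at the lower left and wild type at the upper right. The points follow the line and lie above it (ratio 1.3 to 1.44) where *PRM7* is above 35 FPKM.

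Against wild type, both genes were lower in all 9 other groups, and at least 2-fold lower in 7 of them. All 9 comparisons share the 1 wild type column, and the genes were chosen on such values, so nothing is read from the recurrence. Of 6241 genes fitted, 0.256% were at least 2-fold lower in at least 7 of the 9. On the log2(FPKM + 1) scale, fitted with a term for the deposited table, *PRM7* differed from wild type by -4.70 ± 0.39 (SE) and *BSC1* by -5.24 ± 0.44 in *isw2 rpd3*, where 8.27% of genes were at least 2-fold lower. Without a pseudocount, the level in *isw2 rpd3* was 0.028 times that of wild type for *PRM7* and 0.019 times for *BSC1*. For *rpd3* the differences were -1.13 for *PRM7* and -1.10 for *BSC1* (5.37% of genes 2-fold lower), and for *isw2* -0.37 and -0.38 (0.449%).

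For *rrp6* the differences from wild type were -2.71 ± 0.41 for *PRM7* and -3.09 ± 0.46 for *BSC1* (4.47% of genes 2-fold lower), and for *rrp6* with Chd1-Ume6 -1.73 and -2.09 (2.71%). These groups were only in the workbook and wild type only in the first table, so the values rest on the 3 groups that had a column in both. For *ume6* with the dead fusion they were -2.48 for *PRM7* and -2.63 for *BSC1* (2.32%), and for *PRM7* only *isw2 rpd3* and *rrp6* were lower. For *ume6* with Chd1-Ume6 they were -1.63 and -1.99 (5.29%), for *ume6* -2.10 and -2.66 (3.81%), and for wild type with Chd1-Ume6 -0.62 and -0.68 (2.5%). *BSC1* had the larger drop in 8 of the 9 groups, all except *rpd3*.

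The genes around the locus differed far less from wild type. *PRM7* and *BSC1* were chosen for low values in deletion strains and these neighbours by position only, so a contrast between them follows in part from that choice. The 5 annotated genes on each side were *FAD1*, *MTF2*, *PRP11*, *SIR2* (the silencing histone deacetylase) and *NAT1* (an N-terminal acetyltransferase subunit) beyond *PRM7*, and *PUS9*, *GPR1* (the glucose-sensing receptor), *SLM3*, *DBP10* and *PRP9* beyond *BSC1*. Of these 10, 0 were 2-fold apart from wild type in any of the 9 groups. In *isw2 rpd3* their differences from wild type ran over -0.72 to 0.77, with a median of 0.08 against 0.06 for all genes. The nearest gene beyond *PRM7*, *NAT1*, lies 546 bases away in R64, and the nearest beyond *BSC1*, *PUS9*, lies 1925 bases away.

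**Figure D3:**
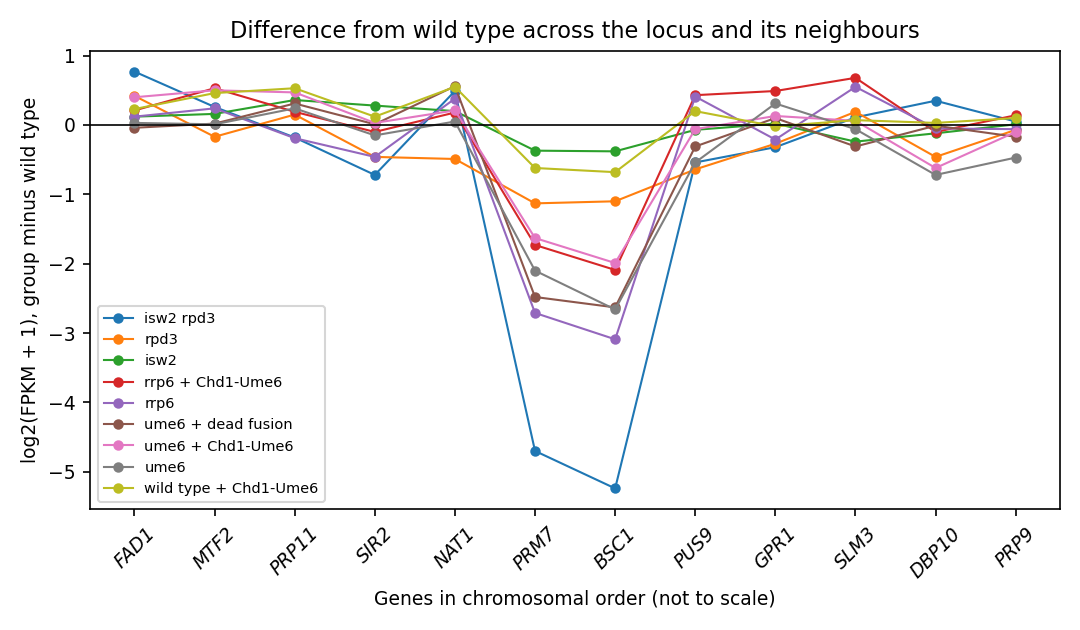
Difference from wild type in log2(FPKM + 1) for *PRM7*, *BSC1* and the 5 genes on each side, in chromosomal order and not to distance, 1 line per strain group. The 10 neighbours stay within 1 log2 unit of wild type in every group, while *PRM7* and *BSC1* dip in all 9, to -4.70 and -5.24 in the double deletion. *PRM7* and *BSC1* were chosen for low values in deletion strains, and the neighbours were not.

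The comparisons that leave wild type out set other strains against each other for the fusion and for the loss of Ume6, Rrp6, Isw2 or Rpd3. With Chd1-Ume6 present, *BSC1* was at 25.9 and 26.8 FPKM in *ume6* with Chd1-Ume6, against 88.5 and 50.7 FPKM in wild type with Chd1-Ume6. *PRM7* was at 24.2 and 23.6 FPKM against 67.9 and 35.6 FPKM in the same strains. For both genes each column without Ume6 lay below both columns with it, which held for 21.5% of all genes. The genes were chosen for low values in deletion strains, and *ume6* with Chd1-Ume6 is such a strain, so the differences are given without a test. They were -1.32 ± 0.31 for *BSC1* on the log2(FPKM + 1) scale (SE, n = 2 columns each) and -1.01 ± 0.28 for *PRM7*. Within the first table the differences were -1.74 for *BSC1* and -1.45 for *PRM7*, and within the workbook -0.90 and -0.57. Without the first-table column of *ume6* with Chd1-Ume6 they were -0.89 for *BSC1* and -0.62 for *PRM7*, and without its workbook column -1.74 and -1.40.

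For loss of Rrp6 with the fusion present, *BSC1* was at 27.0 and 15.2 FPKM in *rrp6* with Chd1-Ume6, against 88.5 and 50.7 FPKM in wild type with Chd1-Ume6, and *PRM7* was at 21.8 and 15.2 FPKM against 67.9 and 35.6 FPKM. For both genes each *rrp6* column lay below both of the others, which held for 17.5% of all genes. The differences, again without a test because the *rrp6* strains are deletion strains, were -1.41 ± 0.34 for *BSC1* and -1.11 ± 0.30 for *PRM7*. Both comparisons share the columns of wild type with Chd1-Ume6. Of 6 marker genes of strain construction, 1, *LEU2*, fell in *ume6* with Chd1-Ume6 against wild type with Chd1-Ume6 (-1.42, limma adjusted p = 0.00573). There 2.69% of all genes fell. In *rrp6* with Chd1-Ume6 against wild type with Chd1-Ume6, *HIS3* was higher (1.40, limma adjusted p = 0.0136), while *LEU2* (-1.18, limma adjusted p = 0.0238) and *URA3* (-1.02, limma adjusted p = 0.0471) fell. Of all genes, 5.51% rose and 0.24% fell there. *HIS3* was at 34.9 and 33.6 FPKM in *rrp6* with Chd1-Ume6, against 21.5 and 13.2 FPKM in wild type with Chd1-Ume6. It was at 41.6 and 34.8 FPKM in *rrp6* and 35.7 FPKM in wild type, so wild type with Chd1-Ume6 was the low strain. When Chd1-Ume6 was added to *ume6* or to *rrp6*, 1 of the 6 markers rose and 0 fell in each. Of all genes, 0.208% rose in *ume6* and 0.609% in *rrp6*. *URA3* was at 545 and 761 FPKM in *ume6* with Chd1-Ume6, against 107 and 114 FPKM in *ume6*. It was at 272 and 216 FPKM in *rrp6* with Chd1-Ume6, against 58.5 and 72.2 FPKM in *rrp6*. With the dead fusion in *ume6* it was at 1210 FPKM. The part of strain construction in the levels of *PRM7* and *BSC1* was not tested.

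Adding Chd1-Ume6 to a deletion strain gave no change of either gene that passed the threshold. In the *rrp6* background *PRM7* was higher with the fusion by 0.99 ± 0.28 (95% interval 0.35 to 1.63, limma adjusted p = 0.147), and *BSC1* by 1.00 ± 0.31 (0.28 to 1.71, limma adjusted p = 0.188), where 0.705% of genes passed. In the *ume6* background *PRM7* differed by 0.47 ± 0.28 (-0.17 to 1.11, limma adjusted p = 0.761) and *BSC1* by 0.66 ± 0.31 (-0.05 to 1.38, limma adjusted p = 0.604), where 0.224% passed. There the gap was mostly in the workbook, 0.81 for *PRM7* and 1.10 for *BSC1*, against 0.13 and 0.23 in the first table. The *ume6* and *rrp6* columns were among those whose low values chose the genes, so a higher value of what is set against them is not independent of that choice. The same limit holds for the p-values here and for the interaction that follows. Whether the fusion acted differently in the *rrp6* and *ume6* backgrounds was tested as an interaction, *rrp6* minus *ume6*: it was 0.52 ± 0.39 for *PRM7* (-0.38 to 1.42, limma adjusted p = 0.671) and 0.33 ± 0.44 for *BSC1* (-0.68 to 1.34, limma adjusted p = 0.844), where 0.208% passed.

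The dead fusion, which lacks remodeling activity, was 1 column, and it was assumed to vary like the other groups. Every strain compared here lacks native Ume6, and low values in such deletion strains chose the genes. These differences and their p-values are therefore not independent of that choice. *PRM7* differed between *ume6* with the dead fusion and *ume6* by -0.39 ± 0.36 (95% interval -1.21 to 0.44, limma adjusted p = 0.87) and *BSC1* by 0.03 ± 0.40 (-0.89 to 0.96, limma adjusted p = 0.986), where 0.0481% of genes passed. Between the active and the dead fusion in *ume6*, *PRM7* differed by 0.86 ± 0.36 (0.03 to 1.68, limma adjusted p = 0.33) and *BSC1* by 0.63 ± 0.40 (-0.29 to 1.56, limma adjusted p = 0.542), where 0.353% passed. All of these intervals except that of *BSC1* with the dead fusion against *ume6* reach a 2-fold difference, so missing the threshold does not show equal levels.

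**Figure D4:**
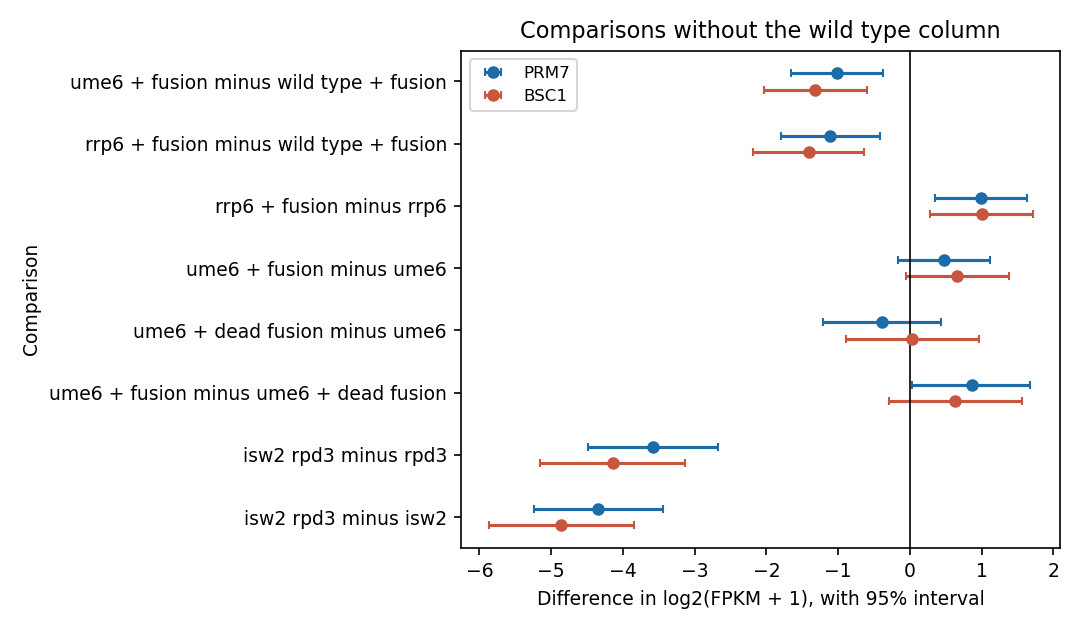
Difference in log2(FPKM + 1) of *PRM7* (blue) and *BSC1* (red) in 8 comparisons without the wild type column, with 95% intervals from the limma fit. Both genes lie below 0 in the fusion strains that lack Ume6 or Rrp6 (-1.01 to -1.41), above 0 in *rrp6* with Chd1-Ume6 against *rrp6*, and between -3.58 and -4.86 in the double deletion. The genes were chosen for low values in deletion strains, so an interval that leaves out 0 is not read as a test.

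Among the comparisons that leave wild type out, the largest gap at the locus was between the double deletion and its single deletions. *PRM7* was at 2.57 FPKM in *isw2 rpd3*, against 41.6 FPKM in *rpd3* and 71.1 FPKM in *isw2*, and *BSC1* was at 2.46 FPKM against 60.0 and 99.2 FPKM. The low double-deletion column was among the values that chose the genes, so these differences are given without a test. Against *rpd3* they were -3.58 ± 0.39 for *PRM7* and -4.14 ± 0.44 for *BSC1*, and against *isw2* -4.34 ± 0.39 and -4.86 ± 0.44. Each side was 1 column, so the SE came from the groups with 2 columns and, through limma, from the spread of other genes. In both comparisons *BSC1* was the second lowest and *PRM7* the third lowest of 6241 genes. The lowest was the gene deleted between the strains, *ISW2* (-4.39) against *rpd3* and *RPD3* (-5.43) against *isw2*. Of the 10 neighbours 0 passed in either comparison, where 0.417% of genes passed against *rpd3* and 2.07% against *isw2*. At an unadjusted limma p under 0.05, 1 of the 10 passed in each.

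Other genes moved with the double-deletion column, where each side is 1 column. Every p there uses a spread borrowed from groups that had 2 and, through limma, from other genes. The marker gene *HIS3* was at 569 FPKM in *isw2 rpd3*, against 43.4 FPKM in *rpd3*, 35.2 FPKM in *isw2* and 35.7 FPKM in wild type, and it rose by 3.68 ± 0.28 against *rpd3* (limma adjusted p = 0.00504). *ADE2* was at 113 FPKM, against 16.9, 41.6 and 45.3 FPKM in the same 3 strains, and it rose by 2.67 ± 0.34 against *rpd3* (limma adjusted p = 0.0215). The differences of 6 a-specific genes against *isw2* ran over -3.42 to 0.19, with a median of -1.96 against 0.07 for all genes. Among them were the pheromone gene *MFA2* (-2.62), the pheromone protease gene *BAR1* (-2.58) and *STE2* (-1.34). Against *rpd3*, 0 of the 6 passed, and their differences ran over -1.95 to -0.09, with a median of -1.16 against 0.14 for all genes. The pheromone gene *MFA1* was at 19.4 FPKM in *isw2 rpd3*, against 77.8 FPKM in *rpd3*, 218 FPKM in *isw2* and 360 FPKM in wild type. The differences of 4 alpha-specific genes against *isw2* ran over -1.94 (*STE3*) to 0.41, with a median of -1.05 against 0.07 for all genes. The part of strain background and mating-type genes in the level of *PRM7* and *BSC1* was not tested.

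Gene groups that share a name or role with the locus were followed in the comparisons that leave wild type out. Some PRM and flocculin genes, unlike *BSC1*, were higher in *ume6* or *rrp6* with Chd1-Ume6 than in wild type with Chd1-Ume6. Most of these genes were themselves lower in wild type with Chd1-Ume6 than in wild type. Of 9 other PRM genes, named like *PRM7* for regulation by pheromone, 8 were fitted. In *ume6* with Chd1-Ume6 against wild type with Chd1-Ume6, 2 rose, where 9.36% of all genes did, and 0 fell: *PRM5*, at 261 and 224 FPKM against 67.4 and 38.1 FPKM (2.23 ± 0.26, limma adjusted p = 0.00282), and *PRM2* (1.13, limma adjusted p = 0.023), with a list median of 0.51 against 0.01 for all genes. Of all genes, 12% passed there in either direction, and 5.75% in the *rrp6* comparison. In *rrp6* with Chd1-Ume6 against wild type with Chd1-Ume6, 3 rose, where 5.51% of all genes did, and 0 fell, with *PRM1* at 28.0 and 30.1 FPKM against 5.93 and 4.30 FPKM (2.37 ± 0.24, limma adjusted p = 0.00249), beside *PRM5* and *PRM10*. *PRM10* also rose in *rrp6* with Chd1-Ume6 against *rrp6* (1.96 ± 0.30, limma adjusted p = 0.0351). In the double deletion 0 of the 8 passed against *rpd3* or *isw2*. Their differences ran over -1.11 to 1.36 against *rpd3*, with a median of 0.02 against 0.14 for all genes. Against *isw2* they ran over -1.90 to 0.20, with a median of -0.77 against 0.07 for all genes. Against wild type, given without a test, the PRM median was -0.52 in wild type with Chd1-Ume6, where *PRM5* (-1.20) and *PRM10* (-1.33) were lowest. It was 0.30 in *ume6* with Chd1-Ume6 and 0.35 in *rrp6* with Chd1-Ume6. In *rpd3* and *isw2 rpd3* it was -1.04 and -0.95. There 4 of the 8 were at least 2-fold lower in each, where 5.37% and 8.27% of all genes were.

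Of 5 other BSC genes, grouped with *BSC1* for a stop codon open to bypass, 4 were fitted and 0 passed in the limma comparisons of fusion strains and of the double deletion. Their differences ran over -0.94 to 1.39, with both ends in the double deletion against *isw2*. *BSC4* was the member with the widest range, at 1.86 FPKM in *isw2* and 17.4 FPKM in the first-table column of *ume6* with Chd1-Ume6. Of 15 pheromone response genes 14 were fitted. In *ume6* with Chd1-Ume6 against wild type with Chd1-Ume6, 1 fell and 0 rose, where 2.69% and 9.36% of all genes did. The 1 was *SST2*, a negative regulator of the pheromone signal (-1.04, limma adjusted p = 0.0311). In *rrp6* with Chd1-Ume6 against wild type with Chd1-Ume6, 1 rose and 0 fell, where 5.51% and 0.24% of all genes did. That gene was *MSG5*, a phosphatase of the same pathway (1.47, limma adjusted p = 0.0207). With 1 of 14 in each, nothing is read about the list. Of 6 flocculin names 5 were fitted, with *FLO11* listed under its older name *MUC1*. *FLO10* rose in both of those comparisons (0.89 and 1.13, limma adjusted p = 0.0497 and 0.047), and *FLO5* rose in the *rrp6* strain (1.25, limma adjusted p = 0.0244). Thus 1 of the 5 rose in the first, where 9.36% of all genes did, and 2 in the second, where 5.51% did. Against wild type, given without a test, the flocculin median was -0.67 in wild type with Chd1-Ume6. It was -0.08 in *ume6* with Chd1-Ume6 and 0.51 in *rrp6* with Chd1-Ume6. *MUC1*, the flocculin that *BSC1* resembles, was at 0.679 to 2.98 FPKM in all columns and passed in 0 of these comparisons, with its lowest limma adjusted p, 0.0522, in *ume6* with Chd1-Ume6 against wild type with Chd1-Ume6 (0.97 ± 0.27).

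The genes whose pattern over the 15 columns was most like the mean of *PRM7* and *BSC1*, by Pearson r with the table term removed, were *SUL2* (r = 0.889), a sulfate permease gene, *MET14* (0.887), the adenylylsulfate kinase gene of sulfate assimilation, and *FRE1* (0.867), a ferric reductase gene. They were followed by *YPR158C-C* (0.85), *YHR214C-C* (0.845), *YHR214C-B* (0.835), *YPR002C-A* (0.834) and *YER138W-A* (0.832). *YPR158C-C*, *YHR214C-C* and *YHR214C-B* are annotated as retrotransposon protein genes, and how reads of their near-identical copies were counted is not given. *PRM7* and *BSC1* themselves each had r = 0.998 with their mean, and 0 of 6229 other genes reached 0.9. *SUL2* spanned 6.17 FPKM in *isw2 rpd3* to 32.9 FPKM in *isw2*, with 27.2 FPKM in wild type, a far narrower range than the locus. *MET14* was at 21.0 FPKM in *isw2 rpd3*, 60.7 FPKM in *rpd3* and 145 FPKM in *isw2*, against 130 FPKM in wild type. It was at 26.1 and 18.6 FPKM in *rrp6*, so it shared the low values of the double deletion and of *rrp6*. *FRE1* was at 20.2 FPKM in *isw2 rpd3* and at 13.8 and 10.6 FPKM in *rrp6*, against 61.7 FPKM in wild type, and its lowest group was therefore *rrp6* and not the double deletion.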

How the data were processed

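Total RNA was depleted of ribosomal RNA and made into strand-specific dUTP libraries, per the labels' protocols. The authors deposited abundances in a first table of 8 log2 columns and in a workbook of 7 sheets headed log2 FPKM, per the file headers. The sheet of *ume6* holds log10 values as deposited, although its header says log2: its SD was 0.311 times the mean SD of the other sheets (0.301 would follow from log10), and its FPKM then sum to 938206. Another deposited column is a yes or no motif entry per gene, per the file headers. Cufflinks 2.2.1, Cuffdiff, TopHat2, SAMtools and CASAVA appear in the submitters' processing notes, which give no roles. The sources used here give no build, annotation or strand setting. All 15 sample columns entered the analysis.

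The tests used log2(FPKM + 1), a scale that understates changes of low genes. Of 6644 genes, 6241 had a value in all 15 columns and at least 1 FPKM in at least 2. A single limma 3.58.1 model (R 4.3.3) held group and deposited table, with a trend on abundance and 4 residual degrees of freedom. The spread of each gene was drawn toward that of all genes, with a median of 4.3 prior degrees of freedom. The model was also run on simulated data, and no error rate from that run is given here. Tests were two-sided, with Benjamini-Hochberg adjustment over all 6241 genes and a threshold of 0.05. The wild type column was fitted as 1 column. Tests were also planned for the double deletion against its single deletions and for the fusion strains with a deletion against wild type with Chd1-Ume6. Values of the members are given there without a p, because low values in deletion strains chose the genes. The p-values of the members between deletion strains with and without a fusion are not independent of that choice either. Depth was recovered from the steps of low FPKM values with R64 coding lengths, over 53 to 179 genes a column. The labels do not say whether isolates were separate cultures, so the spread behind each p-value may be technical. Members and gene lists were chosen with earlier results of these data known. Named genes are the members, the 5 annotated genes on each side, the 8 genes most like the members, and up to 4 genes of a list. Alternatives were other pseudocounts, no filter, other scalings, no table term, no trend, a replicate block and leaving out each column. Sequences were read from RefSeq R64 with Biopython 1.88.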

Additional observations from a re-analysis of the deposited data

How the results depend on the processing

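No direction of *PRM7* or *BSC1* turned round under another pseudocount, filter, scaling or model, apart from *BSC1* in *ume6* with the dead fusion against *ume6*, whose difference of 0.03 became -0.02 with equal total FPKM. With a column left out, that difference ran over -0.12 to 0.34 and the interaction of *BSC1* over -0.10 to 0.76, and no other direction turned. Groups of 1 or 2 columns limit every comparison. The causes of the shifts below were not tested.

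With a pseudocount of 0.1, a pseudocount of 5 and quantile normalization, the difference of the double deletion from *rpd3* was -3.97, -2.62 and -3.13 for *PRM7* and -4.55, -3.12 and -3.66 for *BSC1*, and that from *isw2* was -4.74, -3.33 and -3.85 for *PRM7* and -5.28, -3.80 and -4.33 for *BSC1*. Leaving out a column gave -1.74 to -0.89 for *BSC1* and -1.40 to -0.62 for *PRM7* in *ume6* with Chd1-Ume6 against wild type with Chd1-Ume6. In *rrp6* with Chd1-Ume6 against wild type with Chd1-Ume6 it gave -1.80 to -1.02 for *BSC1* and -1.47 to -0.86 for *PRM7*. No difference of *PRM7* or *BSC1* that was tested became a call under any setting.

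The isolate numbers were carried only by the columns of *rrp6* and *rrp6* with Chd1-Ume6, and same-numbered columns deviated in opposite directions (r = -0.34 over genes), so the numbers do not show a pairing. With the replicate block the genes passing were 4 rather than 14 for *ume6* with Chd1-Ume6 against *ume6*, 29 rather than 44 for *rrp6* with Chd1-Ume6 against *rrp6*, 204 rather than 359 for *rrp6* with Chd1-Ume6 against wild type with Chd1-Ume6, 12 rather than 26 for the double deletion against *rpd3*, 85 rather than 129 against *isw2*, and 1 rather than 13 for the interaction. The crossed block, chosen after seeing the data, gave 8 for the first, 150 for the second, 88 for the interaction and 1153 rather than 752 for *ume6* with Chd1-Ume6 against wild type with Chd1-Ume6.

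In the same order of comparisons, quantile normalization gave 7, 9, 110, 6, 46 and 0 genes, and 14 rather than 22 for the active against the dead fusion. Equal total FPKM gave 7 for *ume6* with Chd1-Ume6 against *ume6*, 141 for *rrp6* with Chd1-Ume6 against *rrp6* and 32 for the interaction. A pseudocount of 5 gave 23 for *ume6* with Chd1-Ume6 against *ume6* and 13 for the double deletion against *rpd3*. No table term gave 45 for the active against the dead fusion. Leaving out a column gave 1 to 18 genes for *ume6* with Chd1-Ume6 against *ume6*, 0 to 102 for *rrp6* with Chd1-Ume6 against *rrp6*, 9 to 364 for *rrp6* and 54 to 932 for *ume6* with Chd1-Ume6 against wild type with Chd1-Ume6, 11 to 27 and 73 to 141 for the double deletion against *rpd3* and *isw2*, 4 to 35 for the active against the dead fusion, 1 to 5 for the dead fusion against *ume6*, and 0 to 60 for the interaction.

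Against wild type, the double deletion moved to -5.11, -3.68 and -4.14 for *PRM7* and to -5.66, -4.17 and -4.61 for *BSC1* with a pseudocount of 0.1, a pseudocount of 5 and quantile normalization. *rrp6* moved to -2.34 and -2.74 with a pseudocount of 5, and to -3.26 and -3.61 without the table term. *rrp6* with Chd1-Ume6 moved to -2.27 and -2.61 without the table term and to -1.34 and -1.70 with equal total FPKM, and *PRM7* there to -2.01 with quantile normalization. Equal total FPKM also gave -2.19 for *PRM7* with the dead fusion, -1.31 and -1.68 for *ume6* with Chd1-Ume6, and -1.75 and -2.32 for *ume6*. Leaving out a column gave -2.48 to -1.70 for *BSC1* in *rrp6* with Chd1-Ume6, -1.89 to -1.11 for *PRM7* and -2.28 to -1.42 for *BSC1* in *ume6* with Chd1-Ume6, and -0.98 to -0.43 for *PRM7* in wild type with Chd1-Ume6.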
